A study of Rattus norvegicus with 24 samples.

Results

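The genes described here make ribosomes or transcribe their RNA: ribosome biogenesis factors of the nucleolus and subunits of RNA polymerase I and RNA polymerase III. Members were taken by gene symbol, from probe sets annotated to a single gene whose symbol starts with Nop, Polr1, Polr3, Utp, Rrp, Wdr12, Imp3, Imp4 or Nol, or equals Ncl, Npm1, Fbl, Dkc1, Gar1, Bop1, Pes1 or Nip7. This gave 63 of the 14217 named genes on the array, represented by 82 of 31042 probe sets, and each gene is given by its brightest probe set. No probe set was named Npm1 alone. Of the 63 members, 3 (Nol3, Nol4 and Nol4l) carry the name pattern without an established role in making ribosomes, and they are described separately below, although the counts and medians over all members include them.

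Messenger RNA was measured on 24 arrays from male Wistar rats, an outbred strain without any genetic modification named in the labels. Aged 7 weeks when the schedule began and 8 weeks at excision, all of them for 7 days could eat only between hour 10 and hour 16. On day 8 the fed rats (animals 1, 2, 4 and 5) ate again in that window, while the fasted rats (animals 6, 8, 9 and 10) received no food and had gone 24 h without it when tissues were taken at hour 16. Interscapular brown adipose tissue (BAT, the heat-producing fat), perinephrial white adipose tissue (WAT, a storage fat) and liver were collected, so that each of the 6 groups holds 4 arrays from 4 animals. The fed rats are thus rats at the end of their daily meal. Values are whole-tissue signals, in which fewer cells of a type and less RNA per cell cannot be told apart.

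Ribosome production begins in the nucleolus, where RNA polymerase I transcribes the long precursor of the ribosomal RNAs, while RNA polymerase III makes the smallest ribosomal RNA and the transfer RNAs outside it. The precursor is modified by small nucleolar ribonucleoproteins of the box C/D type, which guide methylation, and the box H/ACA type, which guide pseudouridine formation. It is then folded and cut in the small-subunit processome and in successive large-subunit particles. The process takes up much of a growing cell's energy, and it is known to slow in starved cells as nutrient and insulin signalling falls.

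Members passed the test in the same direction in all 3 tissues for 4 genes, and their upstream sequences are printed to show the promoters of the genes that moved together: Nop56, Polr3k, Utp6 and Nop53. The promoters of Nol11, Utp20 and Pes1 are added because they are those of called members that hold the E-box CACGTG, the site of the Myc and Max pair, within the 150 bases before the start. Sequences are the 150 bases upstream of the transcription start in RefSeq on build GRCr8, written 5′ to 3′ on the gene's strand, with the letters of 3 searched motifs in capitals. The motifs, each searched on both strands, were the E-box CACGTG, the box CCAAT bound by the factor NF-Y, and CCGGAAG, the core of sites of the ETS family of factors. In Nol11 the reversed CCAAT and the E-box abut and share no base.
Nop56: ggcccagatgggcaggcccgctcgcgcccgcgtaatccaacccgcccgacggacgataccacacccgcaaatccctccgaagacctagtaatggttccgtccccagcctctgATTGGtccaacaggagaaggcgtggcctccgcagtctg
Polr3k: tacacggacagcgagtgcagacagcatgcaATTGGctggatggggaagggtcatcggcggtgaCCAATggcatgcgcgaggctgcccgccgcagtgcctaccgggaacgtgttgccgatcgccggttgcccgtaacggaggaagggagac
Utp6: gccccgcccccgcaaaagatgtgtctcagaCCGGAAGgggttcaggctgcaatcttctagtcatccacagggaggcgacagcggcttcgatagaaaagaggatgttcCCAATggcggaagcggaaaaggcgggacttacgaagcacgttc
Nop53: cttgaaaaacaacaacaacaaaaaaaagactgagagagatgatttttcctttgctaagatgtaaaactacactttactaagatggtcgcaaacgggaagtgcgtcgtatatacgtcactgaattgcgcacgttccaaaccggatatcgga
Nol11: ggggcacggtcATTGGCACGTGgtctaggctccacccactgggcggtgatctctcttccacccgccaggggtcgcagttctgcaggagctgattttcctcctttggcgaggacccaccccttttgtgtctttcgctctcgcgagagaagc
Utp20: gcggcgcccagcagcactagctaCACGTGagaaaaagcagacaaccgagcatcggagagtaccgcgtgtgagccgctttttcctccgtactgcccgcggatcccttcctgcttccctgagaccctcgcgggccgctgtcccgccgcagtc
Pes1: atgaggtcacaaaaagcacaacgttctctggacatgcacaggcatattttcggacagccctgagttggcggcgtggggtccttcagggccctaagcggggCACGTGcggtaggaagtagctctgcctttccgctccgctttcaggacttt
These stretches lie at chr3:137930029-137930178 for Nop56, chr3:189360199-189360348 for Polr3k and chr14:83074196-83074345 for Pes1 on the plus strand. On the minus strand lie chr10:65425929-65426078 for Utp6, chr1:85765090-85765239 for Nop53, chr10:92641395-92641544 for Nol11 and chr7:25102850-25102999 for Utp20. All are 5′ flanking sequence outside the annotated transcript. CCAAT is present 1 time in the stretch of Nop56, 2 times in that of Polr3k and 1 time in that of Utp6, which also holds 1 CCGGAAG. The stretch of Nop53 holds none of the 3 motifs. Whether a motif goes with the direction of change was not tested.

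Over a window from 250 bases before to 50 bases after the start, 59 of the 63 members had a promoter in the RefSeq table. CACGTG was in 35.6% of them (21 of 59), against 6.63% of all 27456 promoters and 9.77% of the 8618 promoters of genes tested in BAT. CCGGAAG was in 44.1% of members (26 of 59), against 9.21% of all promoters and 18.3% of those of tested genes. CCAAT was in 25.4% of members (15 of 59), against 37.7% of both backgrounds. Among the 26 members with a promoter that passed the test as lower in at least 1 tissue, CACGTG was in 26.9% (7 promoters), CCAAT in 34.6% (9 promoters) and CCGGAAG in 38.5% (10 promoters). A match describes letters in this window and is not a measured binding site.

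Before scaling, the 2% trimmed mean signal of the arrays ran from 92.8 to 205, and replicate arrays correlated at Pearson's r of 0.925 to 0.96 across probe sets. Ucp1 and Apoa1 followed the labels. Ucp1, the brown-fat uncoupling protein, had a signal of 10600 ± 1220 (SD, n = 4) in fed BAT and 10.6 ± 9.14 in fed WAT. Apoa1, a liver lipoprotein gene, was at 5970 ± 639 in fed liver and 12.2 ± 9.33 in fed BAT. Alb and Cidea were less sharply divided. Alb, a hepatocyte marker, was at 10600 ± 1410 in fed liver, 2270 ± 342 in fed BAT and 1780 ± 456 in fed WAT. Cidea, a brown adipocyte marker, was at 8400 ± 921 in fed BAT and 2340 ± 493 in fed WAT. Skeletal muscle markers did not follow the labels in fat. Their mean log2 level over 13 genes was 4.31 to 6.93 on 3 fed BAT arrays, 11.27 on the BAT array of fed animal 5 and 11.65 to 12.14 on the 4 fasted BAT arrays, and 12 of the 13 rose with fasting in BAT. The summed signal of the 13 ran from 4720 to 42700 in fed BAT and from 51400 to 66100 in fasted BAT, and Ckm, the muscle creatine kinase, was as low as 1.55 in fed BAT. In WAT the level was 10.73 and 11.75 on the arrays of fasted animals 8 and 10 and 3.62 to 4.51 on the other 6, and in liver it was 2.99 to 3.8. The 3′ to 5′ log2 ratio of the actin control, a sign of RNA quality, was 1.05 to 1.93 in fed BAT and 0.85 to 1.07 in fasted BAT. Of 8 macrophage markers 4 rose in BAT, 2 in WAT and 3 in liver, and 2 of 4 brown adipocyte markers fell in BAT. The summed signal of 3 T and B lymphocyte markers ran from 22.7 to 1070 in fed WAT and from 22.4 to 565 in fasted WAT. In the groups of BAT and liver that sum did not exceed 52.9. The part of these markers and of RNA quality in the changes below was not tested, other than for muscle.

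The first question was how the 24 h fast moved these genes in each tissue. In BAT 23 of the 61 members tested fell and 2 rose, against 13.1% of all 10342 genes tested called lower and 13.8% called higher, and the share of members called lower was 37.7%. In WAT 14 of 61 fell and 2 rose, against 9.53% of 10276 genes lower and 8.64% higher, a lower share of 23% among members. In liver 5 of 61 fell and 3 rose, against 8.6% of 10250 genes lower and 9.41% higher, a lower share of 8.2% among members. With scan day as a block 10 members fell in liver, against 13.6% of genes, and in a model of all 24 arrays 9 fell, against 9.74%. Called means an adjusted p under 0.05 in limma over all genes tested, and log2 changes are fasted minus fed on the scale of log2(signal + 1.8), which understates the changes of dim genes. The median change of the members tested was -0.31 in BAT, -0.23 in WAT and -0.07 in liver, beside medians of 0.01, 0.03 and 0.03 over all genes tested. A negative change was measured for 51 of 61 members in BAT, 50 of 61 in WAT and 34 of 61 in liver, while 49.2%, 47.3% and 47.5% of all genes tested were negative. Nol4 was below the filter on dim genes in every tissue, Utp18 in both fats and Nol3 in liver.

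**Figure D1:**
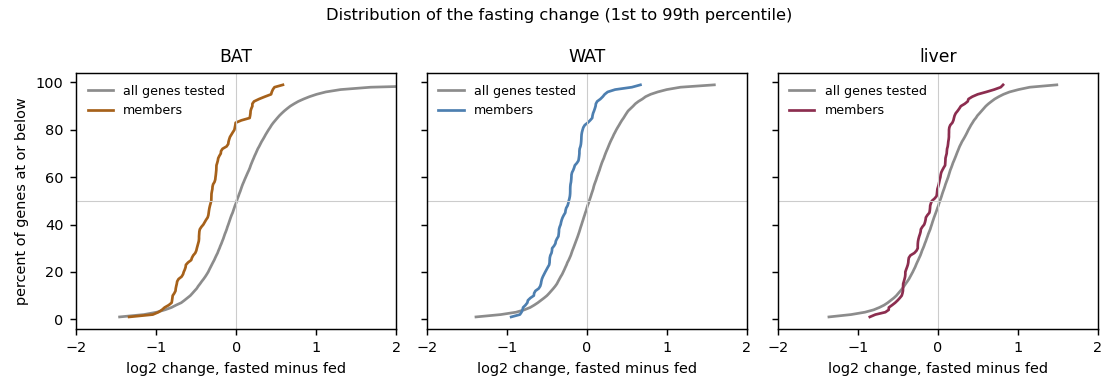
Percent of genes (vertical axis) at or below each log2 change, fasted minus fed (horizontal axis), for members and for all genes tested, from the 1st to the 99th percentile. At the 50% line the members lie at -0.31 in BAT and -0.23 in WAT, left of the grey curve of all genes, and at -0.07 in liver, close to it.

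Of the 62 members tested in at least 1 tissue, 28 (45.2%) fell in at least 1 tissue and 11 (17.7%) in at least 2, against 19.4% and 6.86% of all 11433 genes so tested. Nop56, Polr3k and Utp6 fell in all 3 tissues, 4.84% of members against 1.88% of genes. In at least 1 tissue 5 members rose (8.06% against 20.8%), Nop53 rose in all 3 (1.61% against 1.68%), and no member was called in opposite directions. No call was made in any tissue for 30 of the 63 members. Equal animal numbers are taken to mark the same rats, so the tissues are not independent samples of the fast.

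**Figure D2:**
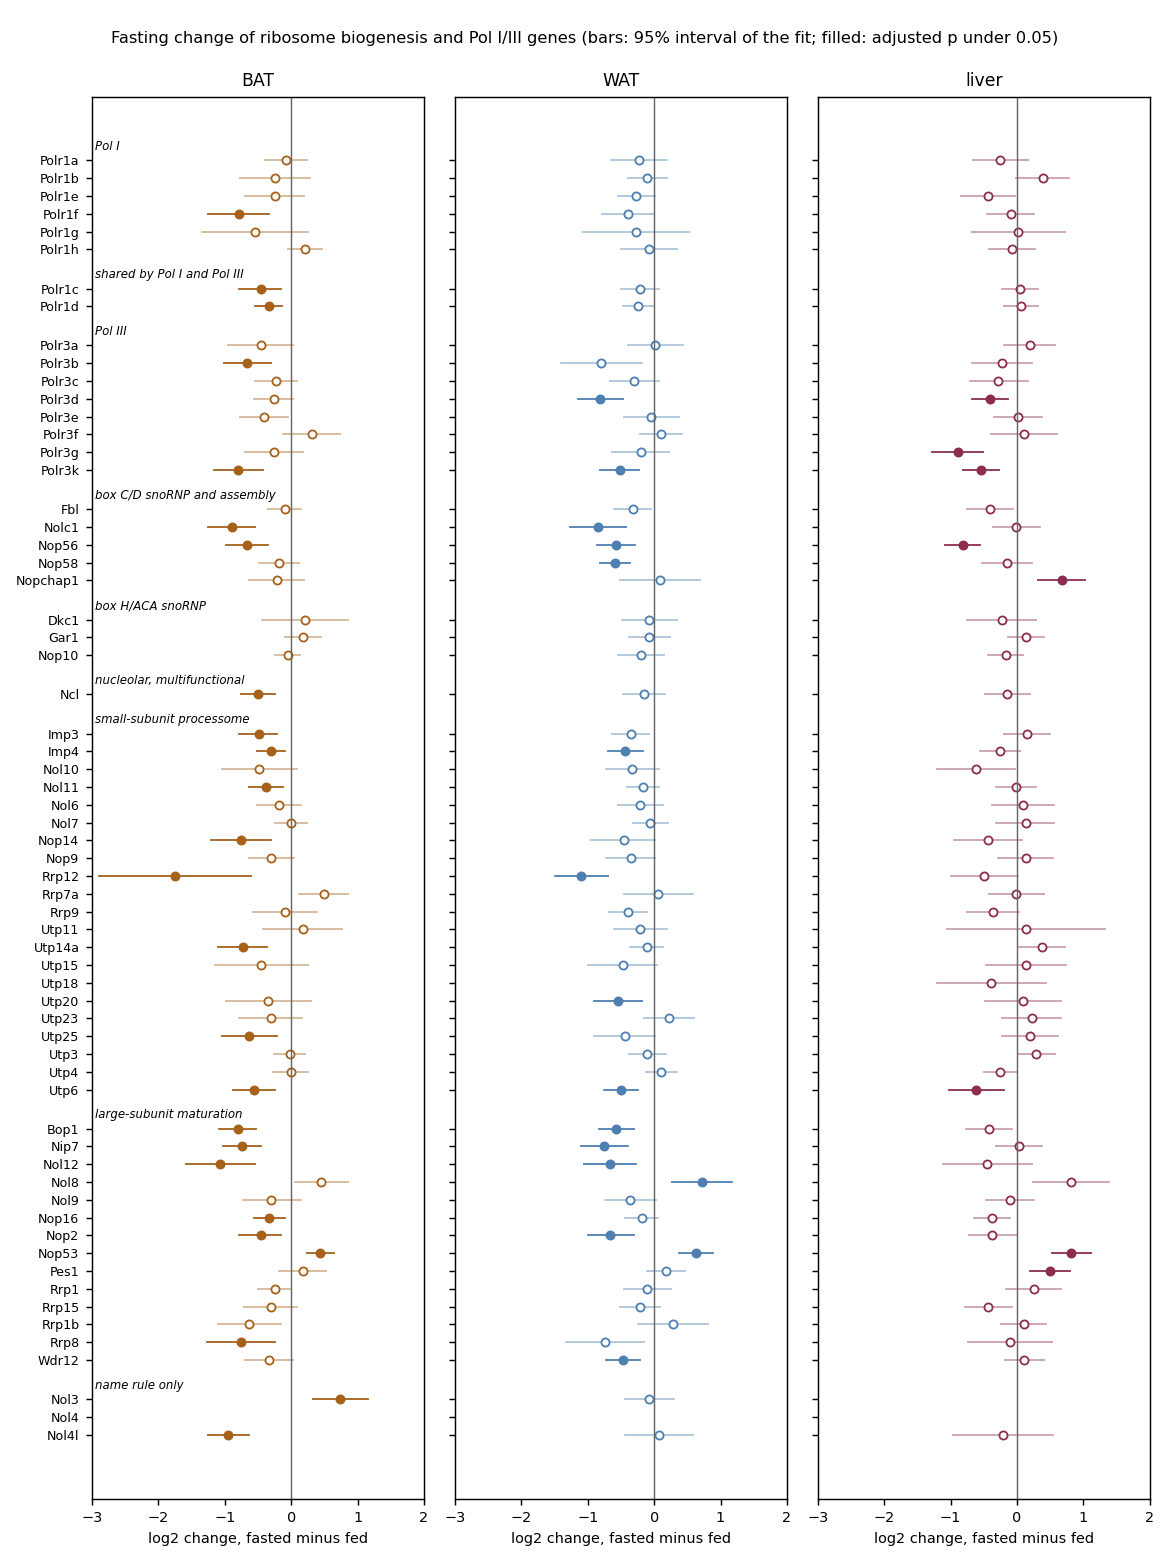
Log2 change, fasted minus fed (horizontal axis), of each member by tissue, grouped by role; points are estimates, bars the 95% interval of the fit, and filled points are members with an adjusted p under 0.05. Filled points on the left of 0 number 23 in BAT, 14 in WAT and 5 in liver, and Nop53 is the member on the right of 0 and filled in all 3 panels.

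Nop56, a core protein of the box C/D particles that guide ribosomal RNA methylation, fell in all 3 tissues. With arrays in the order of the animal numbers, its signals were 271, 269, 256 and 242 in fed BAT and 145, 215, 143 and 156 in fasted BAT. They were 375, 365, 376 and 328 in fed WAT and 268, 272, 240 and 194 in fasted WAT. In liver they were 516, 476, 419 and 470 fed and 234, 286, 268 and 275 fasted. Every fed array lay above every fasted array of its tissue, with changes of -0.67 ± 0.14 (SE, adjusted p = 0.00649), -0.58 ± 0.13 (0.013) and -0.82 ± 0.12 (0.000838) in BAT, WAT and liver. A dimmer probe set of Nop56 gave -0.21, -0.63 and -0.59.

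Polr3k encodes a small RNA polymerase III subunit involved in ending transcription. Its signals were 506, 536, 669 and 589 in fed BAT and 385, 407, 244 and 300 in fasted BAT, and 340, 442, 418 and 434 in fed WAT against 282, 309, 313 and 233 in fasted WAT. In liver the fed arrays read 401, 430, 497 and 480 and the fasted arrays 315, 352, 268 and 304. Fed and fasted arrays did not overlap in any of the tissues, and the changes were -0.8 ± 0.17 (adjusted p = 0.00573), -0.52 ± 0.13 (0.0238) and -0.54 ± 0.13 (0.0121).

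Utp6 belongs to the small-subunit processome. Its signals were 365, 317, 261 and 256 in fed BAT and 222, 169, 205 and 209 in fasted BAT, and 299, 259, 316 and 314 against 195, 229, 222 and 194 in WAT. In liver they were 343, 392, 286 and 437 fed and 179, 205, 307 and 271 fasted. The groups were apart in both fats but overlapped in liver, where fasted animal 9 lay above fed animal 4. The changes were -0.56 ± 0.14 (adjusted p = 0.0162), -0.5 ± 0.11 (0.0149) and -0.61 ± 0.19 (0.0456), and the liver call ended under 11 of 21 alternative settings. All 3 probe sets of Utp6 were lower in every tissue, from -0.72 to -0.15.

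Nop53, a late factor of the large subunit that in yeast brings the exosome to the precursor, rose in all 3 tissues. Its signals were 486, 464, 510 and 518 in fed BAT and 615, 684, 701 and 681 in fasted BAT. They were 612, 532, 458 and 537 against 878, 885, 821 and 726 in WAT, and 292, 264, 289 and 294 against 415, 460, 603 and 550 in liver. No fasted array reached down to a fed array of its tissue, and the changes were 0.44 ± 0.09 (adjusted p = 0.00589), 0.63 ± 0.12 (0.00523) and 0.81 ± 0.13 (0.00208). With arrays centred on their median instead of the trimmed mean, the BAT change was 0.38 with an adjusted p of 0.0723.

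**Figure D3:**
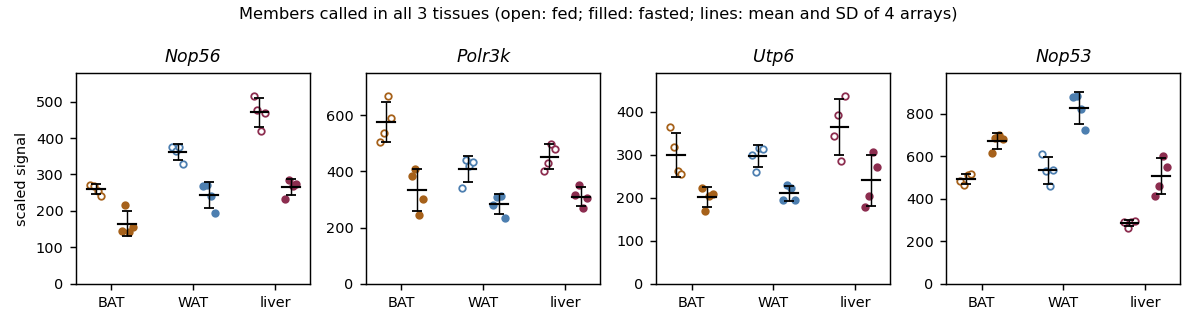
Scaled signal (vertical axis, from 0) of Nop56, Polr3k, Utp6 and Nop53 on each array of the 6 groups; open points are fed, filled points fasted, and lines the mean and SD of 4 arrays. Fed arrays lie above fasted arrays for the first 3 genes apart from an overlap of Utp6 in liver, and below them for Nop53.

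Over all genes tested, 13.1%, 9.53% and 8.6% were called lower in BAT, WAT and liver, and 13.8%, 8.64% and 9.41% higher. The counts by role below were not tested against these shares. Among the 6 subunits tested that belong to RNA polymerase I alone, 1 fell in BAT and none was called in WAT or liver. That subunit, Polr1f, of the stalk of the enzyme, was named after its values were seen. Its signals in BAT were 264, 195, 339 and 176 fed and 168, 146, 116 and 116 fasted, without overlap, a change of -0.79 ± 0.21 (adjusted p = 0.0192). The largest subunit Polr1a changed by -0.08 ± 0.14, -0.23 ± 0.19 and -0.25 ± 0.19 in BAT, WAT and liver, and the second-largest subunit Polr1b by -0.25 ± 0.24, -0.1 ± 0.13 and 0.39 ± 0.18, with adjusted p-values of 0.174 or more. Neither catalytic subunit thus passed the test, with 95% intervals in BAT from -0.4 to 0.23 for Polr1a and from -0.77 to 0.28 for Polr1b. Polr1g, with -0.55 ± 0.36 in BAT (adjusted p = 0.298), was among the largest changes that were not called.

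Both subunits shared by polymerases I and III fell in BAT and in no other tissue passed the test. Polr1c read 267, 206, 247 and 179 fed and 160, 170, 149 and 164 fasted there, -0.46 ± 0.14 (adjusted p = 0.033). That call ended under 10 of 21 alternative settings. Polr1d read 774, 924, 876 and 832 fed and 711, 664, 671 and 631 fasted, -0.34 ± 0.09 (adjusted p = 0.0196). A second probe set of Polr1d, nearly as bright (mean log2 9.52 against 9.53), gave -0.15 in BAT, -0.25 in WAT and 0.32 in liver. Under quantile normalization, where the brightest probe set was chosen anew, the change of Polr1d in BAT was -0.09 with an adjusted p of 0.622. Which probe set stood for the gene there is not given. In WAT the changes of Polr1c and Polr1d were -0.21 ± 0.13 and -0.24 ± 0.1, and in liver 0.04 ± 0.12 and 0.06 ± 0.12.

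Of the 8 polymerase III subunits, 2 fell in BAT, 2 in WAT and 3 in liver, and none rose. These are counts of few genes, beside 13.1%, 9.53% and 8.6% of all genes called lower and 13.8%, 8.64% and 9.41% higher. Polr3b, the second-largest subunit, fell in BAT, with signals of 67.9, 60.5, 84.4 and 81.7 fed and 43.4, 45.2, 46.8 and 47.3 fasted and a change of -0.66 ± 0.16 (adjusted p = 0.0124). In WAT its signals of 44.1, 38, 40.7 and 33.8 fed and 31.7, 28.2, 13.1 and 18.3 fasted also did not overlap, but the spread was wider and the change of -0.8 ± 0.27 had an adjusted p of 0.0708. Polr3d, a subunit that pairs with Polr3e, fell in WAT from 234, 325, 256 and 325 to 140, 153, 155 and 198, a change of -0.81 ± 0.15 (adjusted p = 0.00604). In liver it fell from 210, 238, 205 and 243 to 159, 185, 167 and 162, a change of -0.41 ± 0.12 (0.0385). The liver call ended under 9 of 21 alternative settings. The BAT change of Polr3d was -0.26 ± 0.13 (0.169).

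Polr3g encodes an exchangeable subunit of polymerase III whose paralog replaces it in many differentiated cells. It fell in liver, where the fed arrays read 105, 149, 130 and 144 and the fasted arrays 61.5, 59.9, 90.6 and 70.3. The groups were fully apart, with a change of -0.89 ± 0.18 (adjusted p = 0.00552), beside -0.26 ± 0.2 in BAT and -0.2 ± 0.19 in WAT. The largest subunit Polr3a changed by -0.46 ± 0.22, 0.02 ± 0.18 and 0.19 ± 0.17, and Polr3e by -0.41 ± 0.16, -0.04 ± 0.18 and 0.01 ± 0.16, with no call.

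Among the 5 box C/D proteins and their assembly factors, 2 fell in BAT (all genes 13.1%), 3 fell in WAT (9.53%), and in liver 1 fell (8.6%) and 1 rose (9.41%). Nolc1, a chaperone of these particles in the nucleolus and Cajal bodies, read 218, 276, 255 and 244 in fed BAT and 114, 130, 179 and 114 in fasted BAT, -0.9 ± 0.16 (adjusted p = 0.00257). In WAT it read 243, 216, 250 and 218 fed and 125, 167, 147 and 86.9 fasted, -0.85 ± 0.19 (0.0125). In liver its signals of 126, 186, 203 and 179 fed and 158, 175, 192 and 158 fasted overlapped, -0.01 ± 0.16. The 4 probe sets of Nolc1 did not agree in liver, with changes of -0.38, -0.01, 0.81 and -0.42, and with the mean of its probe sets the BAT change was -0.49 (adjusted p = 0.076).

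Nop58, the partner of Nop56 in the particle, fell in WAT, from 527, 541, 439 and 494 to 359, 323, 311 and 331, a change of -0.59 ± 0.1 (adjusted p = 0.00439). Its changes in BAT and liver were -0.19 ± 0.14 and -0.15 ± 0.17. Fbl, the methyltransferase of the particle, changed by -0.1 ± 0.11 in BAT, -0.32 ± 0.13 in WAT (adjusted p = 0.109) and -0.41 ± 0.16 in liver (0.103), without a call. Nopchap1, an assembly chaperone for Nop58, rose in liver: it read 39.1, 50.4, 45.4 and 39.8 fed and 77.4, 68.5, 74.3 and 63 fasted, a change of 0.68 ± 0.16 (adjusted p = 0.0144).

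None of the 3 box H/ACA proteins on the array was called in any tissue. Dkc1, the pseudouridine synthase, changed by 0.2 ± 0.29, -0.07 ± 0.18 and -0.23 ± 0.24 in BAT, WAT and liver, and Gar1 by 0.18 ± 0.12, -0.07 ± 0.14 and 0.14 ± 0.12. The 95% interval in BAT ran from -0.44 to 0.85 for Dkc1 and from -0.09 to 0.45 for Gar1. Ncl, which encodes the abundant nucleolar protein nucleolin, fell in BAT from 958, 1120, 897 and 878 to 650, 675, 798 and 595, -0.5 ± 0.12 (adjusted p = 0.0104). In WAT and liver its change was -0.15 ± 0.14 and -0.15 ± 0.15.

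Of the small-subunit processome members, 8 of the 20 tested fell in BAT, 4 of 20 in WAT and 1 of 21 in liver, and none rose. Over all genes, 13.1%, 9.53% and 8.6% were called lower and 13.8%, 8.64% and 9.41% higher. Rrp12, which in yeast serves the export of both subunits, had the most negative change in BAT and in WAT. It read 71.7, 89.5, 55.6 and 45.8 in fed BAT and 28.4, 32.5, 23.6 and 3.67 in fasted BAT. In WAT it read 99.7, 121, 106 and 79.8 fed and 52.5, 53.9, 42 and 37.1 fasted. Both tissues showed no overlap, with changes of -1.75 ± 0.52 (adjusted p = 0.03) and -1.1 ± 0.18 (0.00297), but the BAT value rests partly on fasted animal 10 and was -1.14 without that array. The other, dimmer probe sets of Rrp12 gave -0.93 and -0.87 in BAT and -1 and -0.72 in WAT. In liver the change of the brightest was -0.49 ± 0.23 (0.164).

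Utp14a, which recruits a helicase in the processome, fell in BAT from 175, 184, 243 and 143 to 126, 118, 99.2 and 96.8, -0.73 ± 0.17 (adjusted p = 0.0101). Imp3 and Imp4 are partners in a nucleolar particle needed for the first cuts of the precursor. They fell in BAT by 0.49 and 0.31 on the log2 scale (adjusted p = 0.018 and 0.0365). The BAT call of Imp4 ended under 13 of 21 alternative settings. Imp4 also fell in WAT, from 354, 431, 387 and 435 to 294, 297, 338 and 258, -0.44 ± 0.12 (0.0307), where Imp3 gave -0.35 ± 0.12 (0.0748). Fed and fasted arrays of Utp14a, Imp3 and Imp4 did not overlap in BAT. Utp20 fell in WAT, from 85.4, 72.3, 91.7 and 92.2 to 62.1, 68.3, 56.1 and 46.1, -0.55 ± 0.16 (0.0404). The Utp20 call ended under 12 of 22 alternative settings. Named after their values were seen, Nop14 (-0.76 ± 0.21), Utp25 (-0.63 ± 0.19) and Nol11 (-0.38 ± 0.12) also fell in BAT. Among processome members, changes without a call were 0.49 ± 0.17 for Rrp7a in BAT (adjusted p = 0.0527), -0.47 ± 0.23 for Utp15 in WAT and -0.62 ± 0.27 for Nol10 in liver.

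Of the 14 large-subunit factors, 6 fell and 1 rose in BAT, 5 fell and 2 rose in WAT, and none fell and 2 rose in liver. Among all genes, 13.1%, 9.53% and 8.6% were called lower and 13.8%, 8.64% and 9.41% higher. Bop1, Pes1 and Wdr12 form a single complex that the large subunit needs, and their messages did not pass the test together. Bop1 read 197, 242, 199 and 246 in fed BAT and 110, 125, 137 and 128 in fasted BAT, -0.81 ± 0.13 (adjusted p = 0.00133). In WAT it read 142, 151, 149 and 163 fed and 101, 115, 95.2 and 94.6 fasted, -0.57 ± 0.12 (0.00907). Fed and fasted arrays were apart in both fats, while the liver change of -0.42 ± 0.16 had an adjusted p of 0.0922.

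Wdr12 fell in WAT, from 179, 184, 176 and 180 to 125, 120, 153 and 122, -0.47 ± 0.11 (adjusted p = 0.0197), and changed by -0.34 ± 0.16 in BAT and 0.11 ± 0.13 in liver. Pes1 rose in liver, from 122, 130, 114 and 137 to 156, 205, 195 and 161, 0.5 ± 0.14 (0.0286), and changed by 0.18 in both BAT (± 0.16) and WAT (± 0.13). The Pes1 call in liver ended under 9 of 21 alternative settings, among them quantile normalization (0.4, adjusted p = 0.056) and median centring (0.44, 0.0603).

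Nip7, which joins early large-subunit particles, read 159, 149, 161 and 145 in fed BAT and 76.5, 96.4, 89.7 and 103 in fasted BAT, -0.74 ± 0.13 (adjusted p = 0.00225). In WAT it read 298, 256, 263 and 253 fed and 170, 173, 185 and 115 fasted, -0.75 ± 0.16 (0.00959). Its arrays were apart in both fats, while in liver it changed by 0.03 ± 0.16. Nol12, a nucleolar RNA-binding protein, fell by 1.07 on the log2 scale in BAT (SE 0.23, 0.00698) and by 0.66 in WAT (SE 0.17, 0.0244). Nop2, a ribosomal RNA methyltransferase, fell by 0.46 in BAT (SE 0.14, 0.0345) and by 0.66 in WAT (SE 0.15, 0.0165). The BAT call of Nop2 ended under 11 of 21 alternative settings. The fats thus shared these 4 falling members, counting Bop1. None of the 4 passed the test in liver, where the changes were -0.42 for Bop1, -0.45 for Nol12, -0.37 for Nop2 and 0.03 for Nip7. Of the 4, only Nip7 was called when the difference between fat and liver was itself tested. Rrp8 (-0.76 ± 0.23) and Nop16 (-0.33 ± 0.1) also fell in BAT and were named after their values were seen. Their calls ended under 10 of 20 and 12 of 21 alternative settings.

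Besides Nop53, Nol8 rose in WAT, from 48.8, 40.7, 27.9 and 36.1 to 66, 61.2, 77.1 and 51.7, 0.72 ± 0.2 (adjusted p = 0.035). This call ended under 12 of 21 alternative settings. The change of Nol8 was 0.82 ± 0.26 in liver (0.0509) and 0.45 ± 0.18 in BAT (0.0934). Rrp1b in BAT (-0.63 ± 0.22, adjusted p = 0.0519) was the largest change there that was not called, Rrp8 in WAT gave -0.74 ± 0.26 (0.0799), and the 3 probe sets of Rrp1b gave -0.63, -0.13 and -0.17 in BAT.

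Of the genes that share only the name pattern, Nol3 encodes an inhibitor of apoptosis abundant in heart and skeletal muscle. It rose in BAT, from 140, 136, 150 and 164 to 295, 332, 189 and 196, 0.73 ± 0.19 (adjusted p = 0.0158). The muscle marker level beside these arrays was 6.93, 5.34, 4.31 and 11.27 fed and 12.09, 12.14, 11.87 and 11.65 fasted, and with that level as a covariate the change of Nol3 was 0.55 with an adjusted p of 0.417. Nol4l fell in BAT, from 188, 148, 143 and 153 to 72.2, 78.3, 94.1 and 78.7, -0.95 ± 0.14 (0.000886), the lowest adjusted p among the members there, while its second, dimmer probe set gave 0.4.

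The BAT array of fed animal 5 had muscle marker levels close to those of the fasted arrays. Over all 61 members the median of fasted minus animal 5 was -0.26, beside 0 over all genes, and the median of animal 5 minus the other fed arrays was -0.09. These values rest on 1 array, which also entered the fit, and have no test. With the muscle level as a covariate, the median change of the members in BAT was -0.24, but 1 member was called lower (Bop1, -0.95, adjusted p = 0.0464) and none higher, while 3.36% of all genes were called. In WAT without fasted animals 8 and 10, 6 members fell and 1 rose, with a median of -0.26. Those 6 were Rrp12, Polr3d, Nolc1, Bop1, Nip7 and Nop58, with changes from -1.07 to -0.58. The covariate left 4 members lower in WAT and 3 in liver. Shares of all genes called in these WAT and liver fits are not given, so the counts are not compared with a background.

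The scan days of BAT and of liver numbered 2, each with 2 arrays per feeding state. In WAT, day 1 held 2 fed arrays and 1 fasted array, day 2 held 2 of each, and fasted animal 9 was scanned alone. Within days 1 and 2 the median change of the members was -0.31 and -0.41 in BAT, -0.3 and -0.26 in WAT, and -0.03 and -0.14 in liver. Members called lower within these days numbered 5 and 12 in BAT. In WAT they numbered 7 and 0, but day 1 there has a single fasted array, animal 10, which is assumed to vary like the fed arrays and is rich in muscle markers, so the 7 calls have no fasted replicate behind them. The number of BAT members that fell was 14 without fed animal 2, and 15 without fed animal 4 or without fasted animal 10. In WAT it was 8 without fed animal 5 and 9 without fasted animal 6. In liver it was 3 without fed animal 1, fasted animal 6 or fasted animal 10. The counts by scan day and without single arrays are not compared with the share of all genes called in the same fits.

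The second question was whether the fasting change differed between tissues, tested as interaction terms over all 24 arrays. Between BAT and WAT no member differed, against 1.56% of 10450 genes. The lowest adjusted p among members in limma was 0.154, and 4 of 61 had an unadjusted p under 0.05. Between BAT and liver 4 members were lower and 1 higher in BAT, against 5.76% and 5.59% of genes. Between WAT and liver 2 were lower in WAT, against 4.57% of genes. The members' shares, 6.56% lower for BAT minus liver and 3.28% for WAT minus liver, were thus near or below the background. Both comparisons use the same liver arrays.

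Utp14a had the lowest p of the differences. Its signals in liver were 214, 179, 170 and 135 fed and 190, 269, 236 and 206 fasted, and the fasting change in BAT minus that in liver was -1.1 ± 0.22 (adjusted p = 0.00162). For Nip7 the difference was -0.78 ± 0.21 (0.0174) for BAT minus liver and -0.78 ± 0.21 (0.0205) for WAT minus liver, with liver signals of 176, 155, 171 and 184 fed and 131, 176, 216 and 189 fasted. For Nolc1 the differences were -0.89 ± 0.25 (0.022) and -0.84 ± 0.25 (0.0382), on a probe set whose liver change was not shared by its other probe sets. Imp3 differed by -0.64 ± 0.19 (0.0336) between BAT and liver. The 1 member called higher in BAT was Nol3, whose liver signals of 6.82, 16.5, 8.1 and 19.2 fed and 10.5, 3.92, 0.853 and 6.82 fasted were below the filter used in liver, so that it entered the fit through the fats and its liver change is not a measured value. The WAT minus liver count was 0 without fasted animal 9 of liver.

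**Figure D4:**
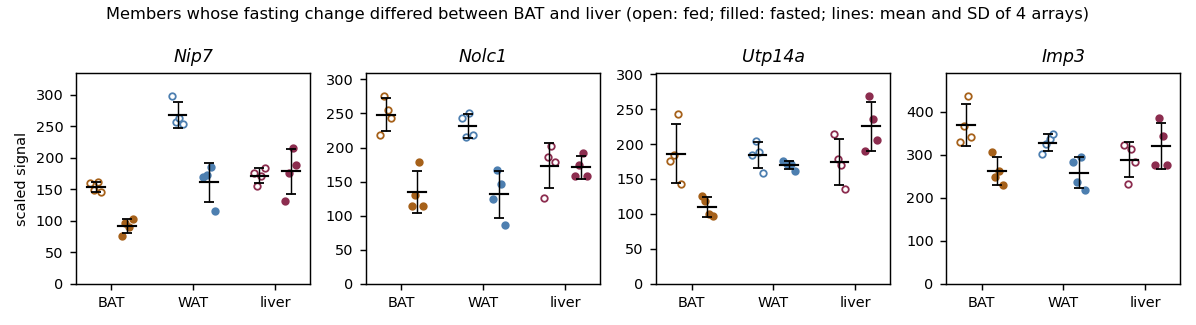
Scaled signal (vertical axis, from 0) of Nip7, Nolc1, Utp14a and Imp3 on each array; open points are fed, filled points fasted, and lines the mean and SD of 4 arrays. In BAT the fasted arrays lie below the fed arrays for all 4 genes, while in liver fed and fasted arrays overlap.

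The third question was how the fed tissues differ. In fed BAT against fed WAT 10 members were higher and 8 lower, against 20.6% and 22.8% of genes. In fed liver against fed WAT 6 were higher and 13 lower, against 22.6% and 40.6% of genes. In fed liver against fed BAT 6 were higher and 18 lower, against 24.2% and 42.6% of genes. With the trimmed-mean scaling, all 6 shares of the members, from 9.84% to 29.5%, lay below the share of all genes. The directions against liver depended on scaling. The median member was at -0.07 for liver minus WAT beside -0.25 over all genes, at 0.09 beside -0.09 after quantile normalization, and at 0.32 beside 0.15 after median centring. The counts were then 11 higher and 7 lower with quantile normalization, and 22 higher and 5 lower with median centring. For liver minus BAT, where the median member was at -0.09 beside -0.28, median centring gave 20 higher, 8 lower and a median of 0.26 beside 0.06. Shares of all genes called under these other scalings are not given, so these counts are not compared with a background.

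Polymerase III subunits made up 4 of the 10 members higher in fed BAT than in fed WAT. Polr3b differed by 0.87 ± 0.22 (adjusted p = 0.00232) and Polr3a by 0.75 ± 0.2 (0.00423). Polr3a read 155, 150, 132 and 107 in fed BAT and 90.9, 60.9, 76.3 and 93.1 in fed WAT, without overlap. Utp23, Nop10 and Nol4l were higher in BAT by 0.83 ± 0.21, 0.74 ± 0.12 and 0.71 ± 0.26. Lower in BAT were Nol3 (-1.1 ± 0.34), Nip7 (-0.79 ± 0.15), Utp15 (-0.79 ± 0.31), Fbl (-0.58 ± 0.13) and Rrp7a (-0.58 ± 0.21). The count of members lower in fed BAT was 5 without fed animal 2 of WAT.

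Polr3g was the member furthest above both fats in fed liver. It read 105, 149, 130 and 144 in fed liver, 45.7, 48.7, 42.7 and 57.7 in fed BAT and 67.8, 44, 46.9 and 55 in fed WAT. The liver arrays lay above all fat arrays, by 1.28 ± 0.19 over WAT (adjusted p = 2.08e-06) and 1.4 ± 0.19 over BAT (4.91e-07). Over WAT, liver was also higher in Polr3c (0.74 ± 0.17), Bop1 (0.67 ± 0.13), Polr1b (0.56 ± 0.2) and Polr1a (0.43 ± 0.18). The call of Polr1a ended under 6 of 17 alternative settings, among them the animal number as a block (adjusted p = 0.0507). Over BAT it was higher in Nop56 (0.85 ± 0.13), Utp15 (0.79 ± 0.31), Polr1b (0.74 ± 0.2) and Polr1e (0.67 ± 0.17).

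Nol3 was called lower in fed liver than in both fats, where it read 249, 363, 360 and 310 in fed WAT and 140, 136, 150 and 164 in fed BAT. Its fed liver signals of 6.82 to 19.2 were below the liver filter, so no fold is given. Nol4l was lower in liver by -2.08 ± 0.26 against WAT and -2.79 ± 0.26 against BAT. Among ribosome factors Nol7, a processome protein, was lower by -0.88 ± 0.16 against WAT and -1.15 ± 0.16 against BAT. Nop53 was lower by -0.9 ± 0.11 and Polr1d by -0.79 ± 0.1 against WAT, and Utp23 by -1.04 ± 0.21 and Polr3a by -0.92 ± 0.2 against BAT. Under alternative settings the Polr1d difference against WAT ran from -1.46 to -0.39. Without fed animal 2 of WAT or fed animal 1 of liver, 7 members were lower in liver than in WAT, and 8 without fed animal 5 of WAT. Pes1, Polr3d, Utp4 and Wdr12, called lower in liver than in WAT, had the opposite sign under median centring, as had Polr3k against BAT.

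Other genes of the pathway were taken from 2 lists. Of 27 regulators and further factors of polymerases I and III, 25 were on the array and tested. Of these 3 rose (12%) and 1 fell (4%) in BAT, 1 rose in WAT (4%) and 2 rose in liver (8%), while 13.8%, 8.64% and 9.41% of all genes were called higher in BAT, WAT and liver. The shares called higher were thus below those of all genes. Maf1, the repressor of polymerase III, read 459, 394, 443 and 398 in fed BAT and 613, 605, 609 and 623 in fasted BAT, 0.53 ± 0.09 (adjusted p = 0.00225). In liver it read 98.7, 84.9, 104 and 74 fed and 225, 259, 171 and 165 fasted, 1.15 ± 0.18 (0.00145). Every fasted array exceeded every fed array in both tissues, and the WAT change was 0.31 ± 0.13 (0.128).

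Myc, the transcription factor known to drive many ribosome genes, rose in both fats. It read 44.5, 63.3, 32.1 and 83.3 in fed BAT and 145, 144, 232 and 254 in fasted BAT, 1.8 ± 0.29 (adjusted p = 0.00157). In WAT it read 158, 112, 98.1 and 117 fed and 174, 201, 230 and 265 fasted, 0.84 ± 0.18 (0.0101), and its liver change was 0.44 ± 0.29 (0.336). In both fats all fasted arrays lay above all fed arrays. Its partner Max rose in BAT by 0.55 ± 0.18 (0.0471). Gtf3c1, the largest subunit of the polymerase III factor TFIIIC, rose in liver by 0.67 ± 0.14 (0.00639), and Crcp, a further polymerase III subunit, fell in BAT by 0.48 on the log2 scale (SE 0.12, 0.0138).

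The second list held 82 further ribosome biogenesis genes, of which 79 were on the array and 78 tested. There 21 fell and 5 rose in BAT, 12 fell and 3 rose in WAT, and 9 fell and 3 rose in liver, with medians of -0.21, -0.09 and -0.02. The shares called lower were 26.9%, 15.4% and 11.5%, beside 13.1%, 9.53% and 8.6% of all genes, and the shares called higher were 6.41%, 3.85% and 3.85%, beside 13.8%, 8.64% and 9.41%. Pak1ip1, a large-subunit factor, read 278, 219, 317 and 191 in fed BAT and 115, 94.5, 67.9 and 60.9 in fasted BAT. In WAT it read 244, 259, 242 and 250 fed and 101, 105, 104 and 63.3 fasted, and in liver 290, 204, 161 and 112 fed and 68, 76.7, 92.4 and 62.8 fasted. No fasted array overlapped with the fed arrays of its tissue, and the changes were -1.57 ± 0.22 (adjusted p = 0.00079), -1.43 ± 0.17 (0.000465) and -1.27 ± 0.25 (0.00596).

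Nob1, the nuclease that finishes the small-subunit RNA, rose in all 3 tissues. It read 235, 236, 247 and 216 fed and 363, 383, 390 and 337 fasted in BAT, and 146, 145, 149 and 150 fed and 211, 232, 249 and 258 fasted in WAT. In liver it read 184, 178, 230 and 213 fed and 324, 324, 343 and 296 fasted. Again no arrays overlapped, with changes of 0.65 ± 0.1 (adjusted p = 0.00123), 0.68 ± 0.11 (0.00234) and 0.68 ± 0.13 (0.00382). Tbl3, of the processome, fell by 0.95, 0.78 and 0.78 on the log2 scale in BAT, WAT and liver, and Bysl, a small-subunit factor, fell by 1.15, 1.01 and 0.7. Wdr46, a processome protein named after its values were seen, fell by 0.79, 0.71 and 0.64. Mrto4, a large-subunit factor, fell in BAT by 0.81 and in liver by 0.43, and Exosc5, an exosome subunit, rose in liver by 0.69 ± 0.16 (0.0123).

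**Figure D5:**
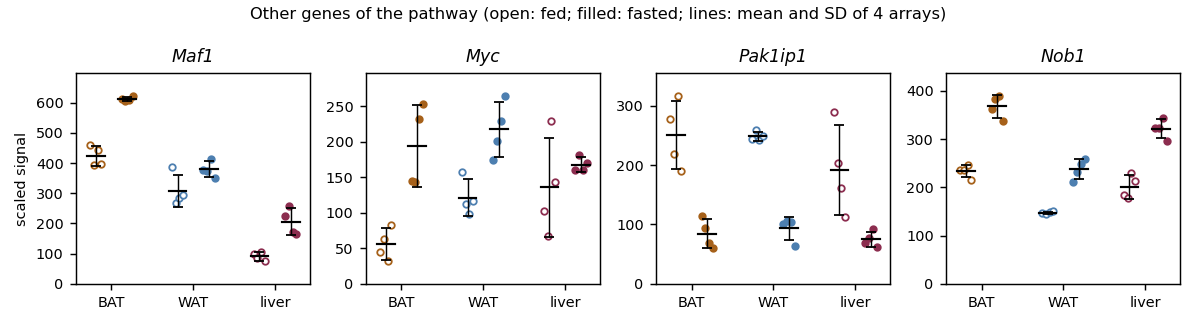
Scaled signal (vertical axis, from 0) of Maf1, Myc, Pak1ip1 and Nob1 on each array of the 6 groups; open points are fed, filled points fasted, and lines the mean and SD of 4 arrays. Pak1ip1 is lower and Nob1 higher on every fasted array than on every fed array of the same tissue, while Maf1 in WAT and Myc in liver overlap.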

How the data were processed

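Messenger RNA of 3 tissues was measured on 24 Affymetrix rat arrays, 4 per group. The deposited values are probe set intensity values on a linear scale, made by the authors with MAS5 per the submitters' processing notes; which version of MAS5 they ran is not stated there, and no deposited intensity was 0 or negative. Everything else was computed here. The 57 control probe sets were left out. Of 31042 probe sets, 20826 carried 1 gene symbol in the platform annotation, 436 several and 9780 were unnamed here; 20758 symbols were taken through the gene identifier. Each array was multiplied so that its 2% trimmed mean became 119. Signals were then put on the scale log2(signal + 1.8), where 1.8 is the 10th percentile. Genes above the 40th percentile of mean log2 signal in a fit were tested.

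Within a tissue, limma 3.58.1 (R 4.3.3) compared fasted with fed arrays by a two-sided moderated test with a variance trend. P-values were adjusted by Benjamini and Hochberg's method across every gene in the fit. Interactions and fed tissues were tested over 24 arrays and 6 group means. Fits were tested on simulated data. Errors are the SD of 4 arrays for signals and the SE of the fit for changes; the number of arrays limits the precision. Replicates are separate animal numbers in the labels.

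The members and gene lists were chosen with earlier results of these data known. Genes named are, per tissue, up to 14 called members in order of p, the 3 largest changes not called, the 5 largest each way between tissues, a fixed set of core genes, every called polymerase factor and up to 4 called further biogenesis genes. Wdr46 and 6 members said to be so were named after their values were seen. Npm1 and Polr3gl were not among the named probe sets.

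Equal animal numbers were taken to mark the same rat. The 24 pairs correlated at -0.01 to 0.15 across genes after removing group means, 5 were over 0.1, and 18 correlated best with their own number. Scan days, numbered within a tissue from the experiment files, were used as batches. Alternatives changed the normalization, pseudocount, filter, probe set rule, symbols, variance trend, model, scan day, muscle level, animal block and arrays included.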

Additional observations from a re-analysis of the deposited data

Results flagged for a closer look

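The fasting change differed between tissues for 4 members measured in both, and a further call, of Nol3, rests on liver signals below the filter. For BAT minus liver the differences in log2 change were -1.1 for Utp14a, -0.89 for Nolc1, -0.78 for Nip7 and -0.64 for Imp3. The fitted 1.82 for Nol3 includes liver signals of 0.853 to 19.2 and is not a measured size. For WAT minus liver they were -0.78 for Nip7 and -0.84 for Nolc1. The shares of members called lower, 6.56% and 3.28%, were near or below the 5.76% and 4.57% of all genes. The 2 calls of Nolc1 ended under 3 and 9 of 25 alternative settings. The 4 probe sets of Nolc1 changed by -0.4, -0.9, -0.7 and 0.02 in BAT and by -0.38, -0.01, 0.81 and -0.42 in liver.

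Single arrays stood far from the other 3 of their group in 12 of 240 groups tested over 40 genes, and chance alone sets apart about 1 in 20 groups. In fed liver, animal 4 read 273 for Bop1 (others 229 to 233) and 349 for Fbl (others 463 to 481), and animal 1 read 83.2 for Polr1b (others 117 to 120). In fed BAT, animal 4 read 173 for Nol12 (others 139 to 141), animal 1 read 352 for Nop2 (others 293 to 303), and animal 5 read 89.8 for Utp25 (others 122 to 128). In fasted BAT, animal 6 read 15.3 for Rrp8 (others 25.9 to 26.8). In fed WAT, animal 4 read 143 for Polr1f (others 230 to 238), and animal 1 read 80.1 for Rrp8 (others 38.3 to 42.4) and 165 for Utp25 (others 101 to 106). In fasted WAT, animal 9, alone on its scan day, read 123 for Nopchap1 (others 54.8 to 62.6) and 153 for Wdr12 (others 120 to 125).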

How the results depend on the processing

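Of 117 gene results called, 41 were called under every alternative in which the gene was tested. With the muscle level as a covariate, 1 member fell and 0 rose in BAT, 4 fell in WAT and 3 in liver; the muscle level did not overlap between fed and fasted BAT arrays, so the parts of muscle and feeding cannot be told apart there. Without fasted animals 8 and 10, chosen after seeing the data, 6 fell and 1 rose in WAT. On scan day 1 alone 5 fell and 1 rose in BAT, and 7 fell and 0 rose in WAT, where that day has 1 fasted array. On day 2 alone 12 fell and 1 rose in BAT, 0 fell and 0 rose in WAT, and 0 rose in liver. With scan day as a block, 10 fell in liver and 1 rose in WAT, and in 1 model of 24 arrays 9 fell in liver and 1 rose in BAT. Risen members in WAT numbered 1 with no filter, with a filter at the 60th percentile and with median centring, and 0 in BAT with median centring. Median centring moved the median of all genes in WAT from 0.03 to -0.08. Quantile normalization gave 7 lower and 11 higher for fed liver against fed WAT. Median centring gave 5 lower and 22 higher there, and 8 lower and 20 higher against fed BAT. It turned the sign of Pes1 (0.06), Polr3d (0.06), Utp4 (0.16) and Wdr12 (0.06) for liver minus WAT and of Polr3k (0.01) for liver minus BAT. The cause of these moves was not tested beyond the smaller number of arrays in fits that leave arrays out. Shares of all genes called stand beside such counts only where given above.

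Leaving out 1 array at a time gave 14 to 20 members lower in BAT, 8 to 13 lower and 1 to 2 higher in WAT, 3 to 6 lower and 2 to 4 higher in liver, and 2 to 3 higher in BAT. Members lower numbered 0 to 3 for WAT minus liver and 3 to 6 for BAT minus liver, 5 to 9 in fed BAT against fed WAT, 7 to 12 in fed liver against fed WAT and 15 to 19 against fed BAT. Those higher numbered 8 to 10, 5 to 8 and 5 to 7 in these fed comparisons. Shares of all genes called with 1 array left out are not given. With the animal number as a replicate block, 6 members were lower for BAT minus liver and 14 in fed liver against fed WAT, where Pes1 (-0.34, adjusted p = 0.0511) and Polr1a (0.43, 0.0507) lost their calls. No other call ended under the block.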

Other observations

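A control probe set of the array for the smallest ribosomal RNA, the product of RNA polymerase III in the ribosome, read 39.2 to 58.8 in fed BAT and 26.5 to 54.8 in fasted BAT. It read 33.8 to 39.9 in fed WAT and 36 to 46 in fasted WAT, and 39.9 to 58.7 in fed liver and 51.4 to 63 in fasted liver. Fed and fasted arrays overlapped in all 3 tissues. All these signals lay below the trimmed mean of 119 to which the arrays were scaled. Whether this probe set follows the amount of that RNA was not tested, so the overlap does not show that polymerase III output was unchanged.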
